A study of Mus musculus with 18 samples.

Results

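Mesothelial genes were followed in the fat of mice on a high-fat diet: Msln, Upk3b, Upk1b, Wt1, Bnc1, Krt7, Krt8, Krt18, Krt19 and Lrrn4, 10 of the 25124 genes in the deposited tables. The genes were chosen by symbol, because they mark the surface layer of epididymal fat and because Lrrn4 differed in brown fat of the knockout, and all 10 were found in each table. RNA came from inguinal white fat (iWAT), epididymal white fat (eWAT) and brown fat (BAT), from wildtype (WT) and caspase-6 knockout (C6KO) mice, with 3 libraries for each genotype and depot, or 18 altogether. The C6KO mice lacked Casp6 in the whole body, and both genotypes came from crosses of heterozygous mice on the C57BL/6J background. Mice of both genotypes were on HFD, a diet with 60% of its calories from fat, for 12 weeks, starting at 10 to 14 weeks of age, and were fasted for 10 h before collection. No library of lean mice is among the 18.

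Mesothelium is a sheet of flat, epithelium-like cells that lines the body cavities and covers the organs in them. eWAT lies in the abdominal cavity and carries such a covering, whereas iWAT lies under the skin and BAT between the shoulder blades. Mesothelial cells keep keratins and other epithelial genes and also express transcription factors of the embryonic cavity lining, of which Wt1 is the best known. In bulk tissue, fewer cells of a type and less RNA per cell cannot be told apart.

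Total counts per library ranged from 16506034 to 19043523 in iWAT, from 16717201 to 19139694 in eWAT and from 7803108 to 12428683 in BAT. The targeted gene, Casp6, had no overlap between the genotypes in any depot, at a mean of 6.59 against 18.9 CPM (reads scaled to a common library total) in iWAT, 5.12 against 18.6 in eWAT and 5.59 against 16.1 in BAT. The genotypes also did not overlap for 23.1%, 23.2% and 19.8% of all genes tested in iWAT, eWAT and BAT. In edgeR's quasi-likelihood test, the adjusted p of Casp6 was 0.0132 in eWAT, 0.0751 in iWAT and 0.0671 in BAT. At a threshold of 0.05, that test thus called the targeted gene in eWAT only. The depot labels were checked against defining genes. Ucp1 had 41691 to 78691 reads in BAT and 3 to 102 in the other libraries, Hoxc10 had at least 236 reads in iWAT and at most 8 elsewhere, Tbx15 had 221 to 433 in iWAT but also 42 to 948 in BAT, with the 948 in WT-2, and Tcf21 was counted in eWAT and, with 0.0561 CPM, in one iWAT library. The 9 epididymis genes summed to at most 0.541 CPM in eWAT, with 7 of the 9 at 0 in each genotype. BAT WT-2 stood apart, with 27700 CPM over 6 skeletal muscle genes against at most 6190 in the other BAT libraries. Lrrn4 in BAT is therefore also given without it.

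In eWAT, all 10 mesothelial genes were counted in every library. Upk3b, which encodes a uroplakin, a membrane protein first known from the bladder lining, had 1308, 1423 and 858 reads in the WT libraries and 258, 555 and 1212 in the C6KO libraries. Msln, which encodes the cell-surface protein mesothelin, had 870, 708 and 365 reads in WT and 118, 459 and 578 in C6KO. Upk1b, a tetraspanin partner of the uroplakins, had 461, 472 and 240 reads in WT and 72, 185 and 365 in C6KO. For all 3 genes C6KO-1 was the lowest library, and C6KO-3 lay within the WT range, as did C6KO-2 for Msln.

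The transcription factors were less abundant. Wt1, a zinc finger factor required for the development of the kidney and of the cavity lining, had 319, 467 and 327 reads in WT and 215, 193 and 438 in C6KO. Bnc1, the zinc finger protein basonuclin 1, had 205, 213 and 127 reads in WT and 45, 114 and 186 in C6KO. Wt1 was the exception among the 10 genes, with C6KO-2 and not C6KO-1 as its lowest library.

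Keratins 7, 8, 18 and 19 form the intermediate filaments of simple epithelia. Krt19 had 171, 251 and 125 reads in WT and 47, 147 and 241 in C6KO, and Krt7 had 117, 113 and 69 in WT and 32, 66 and 115 in C6KO. Krt8 and Krt18, which pair with each other in filaments, had 75, 48 and 27 and 89, 66 and 31 reads in WT, and 12, 64 and 66 and 11, 100 and 82 in C6KO. Unlike the other members, both were near the same level in C6KO-2 and C6KO-3.

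Lrrn4, which encodes a membrane protein with leucine-rich repeats and is enriched in mesothelium, had 738, 747 and 423 reads in eWAT of WT mice and 126, 328 and 710 in C6KO. Per 100 reads of Upk3b, Msln and Upk1b combined, the WT libraries had 28.0, 28.7 and 28.9 Lrrn4 reads and the C6KO libraries 28.1, 27.4 and 32.9. The ratio thus ranged from 27.4 to 32.9 while the Lrrn4 reads themselves ranged from 126 to 747.

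The promoters of Upk3b and of Lrrn4, with 48.8 to 59.1 reads of Lrrn4 per 100 of Upk3b in eWAT and almost no Upk3b reads elsewhere, are shown for comparison, from 250 to 31 bases before the RefSeq start on GRCm38.p6, the mm10 assembly. Capitals mark GGAATG, the core of the TEAD motif, on either strand, read as CATTCC when on the other strand.
Lrrn4, chr2:132880893-132881112, minus strand: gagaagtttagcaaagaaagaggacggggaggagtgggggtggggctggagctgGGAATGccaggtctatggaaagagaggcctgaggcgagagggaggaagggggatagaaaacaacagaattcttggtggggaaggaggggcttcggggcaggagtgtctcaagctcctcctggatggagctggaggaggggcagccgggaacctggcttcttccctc
Upk3b, chr5:136038246-136038465, plus strand: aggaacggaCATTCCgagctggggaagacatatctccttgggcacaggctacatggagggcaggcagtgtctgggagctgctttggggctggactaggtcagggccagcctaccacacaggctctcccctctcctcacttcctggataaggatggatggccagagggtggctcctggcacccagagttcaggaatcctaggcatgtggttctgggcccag
RefSeq promoters were matched for 6 of the 10 genes (Lrrn4, Upk3b, Bnc1, Krt7, Krt8 and Krt18). Lrrn4 and Upk3b held GGAATG 1 time each and the other 4 did not, against 11.4% of 32851 promoters over the same window. GGGCGG, the GC box bound by SP1, occurred 4 times in Bnc1 and 3 times in Krt7 and in 28.5% of all promoters. Neither GCGTGGG, a core shared by WT1 and EGR factors (3.75% of promoters), nor the PPAR direct repeat (0.0304%) was found in the 6 windows. All motifs were searched on both strands. GC content was 59.5% for Lrrn4, 60.0% for Upk3b and 83.2% for Bnc1, with a median of 51.8% over all promoters.

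Levels of different genes were compared per length, in RPKM, which is CPM divided by the transcript length in kilobases. In eWAT of WT mice, Upk3b led with 30.6 ± 7.14 RPKM (SD, n = 3), followed by Msln (15.7 ± 6.49), Upk1b (11.5 ± 3.78), Lrrn4 (9.52 ± 2.70), Krt19 (6.85 ± 2.09), Wt1 (6.22 ± 1.07), Krt7 (3.29 ± 0.879), Krt18 (2.32 ± 1.14), Bnc1 (2.02 ± 0.510) and Krt8 (1.46 ± 0.744). The library ranges did not overlap between Upk3b and Msln or between Wt1 and Krt7. They overlapped for the other 7 pairs of neighbours in this order.

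**Figure D1:**
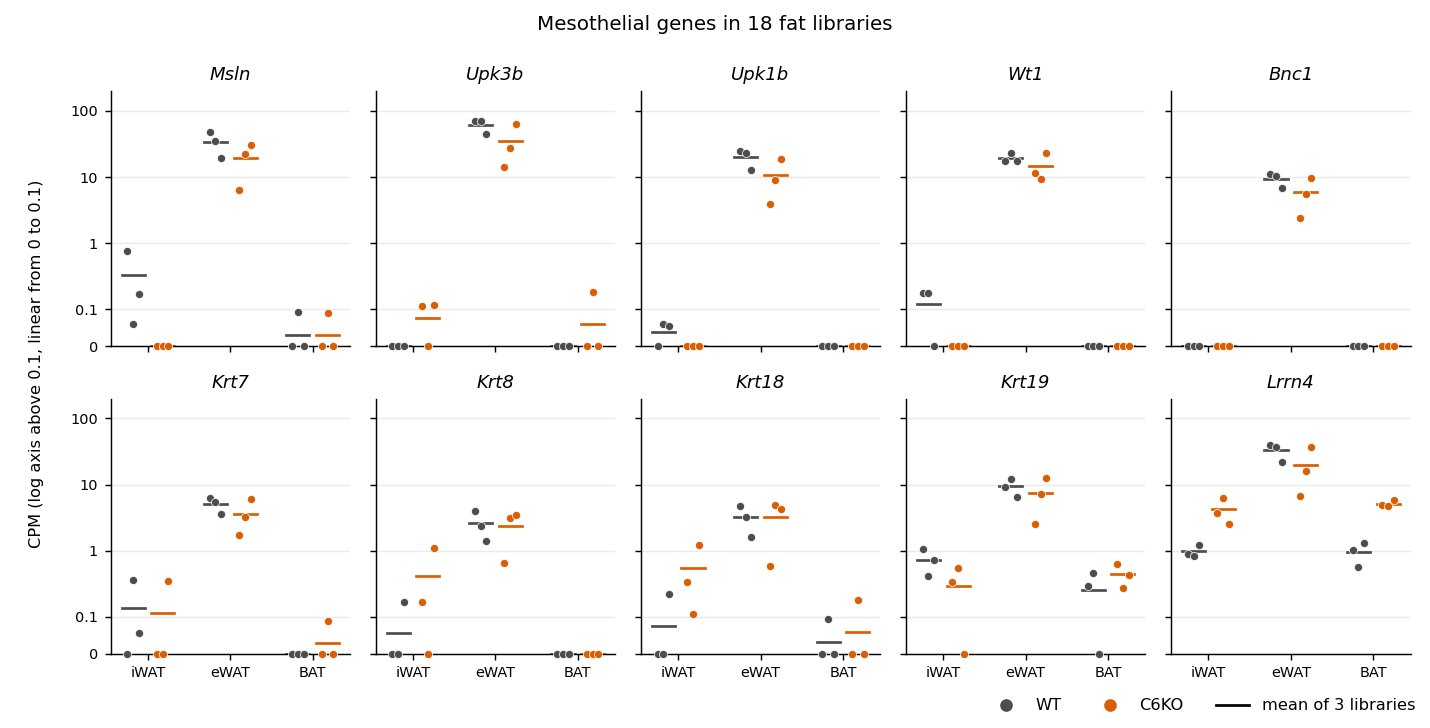
CPM of each mesothelial gene (y axis, logarithmic above 0.1 CPM and linear below) in iWAT, eWAT and BAT (x axis). Points are libraries, WT in grey and C6KO in orange, and lines are means of 3 libraries. All 10 genes are highest in eWAT, and Lrrn4 alone lies between 2.58 and 6.31 CPM in every C6KO library of iWAT and BAT.

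Outside eWAT, the mesothelial genes other than Lrrn4 had few or no reads, and most of those were keratin reads. The 9 genes together had 77 reads in iWAT of WT mice and 77 in C6KO, of which 25 and 4 were not keratin reads. BAT held 9 of their reads in WT and 18 in C6KO, of which 1 and 3 were not keratin reads. Bnc1 had 0 reads in all 12 iWAT and BAT libraries. A floor of 3 reads in each library stands at 0.175 CPM in iWAT WT, 0.168 in iWAT C6KO, 0.350 in BAT WT and 0.325 in BAT C6KO. These floors cover counting error only. Krt19 was above the floor in each iWAT library of WT mice, at 0.416 to 1.07 CPM. Per length it was above Lrrn4 there, at a mean of 0.537 against 0.284 RPKM. Krt8 and Krt18 reached 1.09 and 1.20 CPM in iWAT C6KO-3.

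Because the genes were chosen for this layer, their depot differences are given as a description. Upk3b in eWAT of WT mice was at least 355-fold higher than in iWAT and at least 177-fold higher than in BAT, where no read was counted. Msln was 101-fold higher than in iWAT (95% counting interval 63.5 to 175), where WT-1 alone held 13 of its 17 reads. Wt1 was 161-fold higher than in iWAT (counting interval 75.8 to 452) and at least 54.8-fold higher than in BAT. Krt19 had the smallest difference from iWAT in WT, 12.7-fold (counting interval 9.24 to 18.3). Lrrn4 was 33.5-fold higher in eWAT than in iWAT and 34.1-fold higher than in BAT in WT.

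The members were chosen for the surface layer of eWAT, and all but Lrrn4 fell under the filter on low counts in iWAT and in BAT. The shares of all genes given here are therefore part of the description and not a test. In WT, every eWAT library exceeded every iWAT and every BAT library for all 10 genes, where 29.2% and 31.9% of all 15866 genes did so. In C6KO this held for 8 of the 10 genes against iWAT, with a background of 21.3%, and for all 10 against BAT, with a background of 33.1%. The 2 exceptions were Krt8 and Krt18, for which iWAT C6KO-3 with 19 and 21 reads was above eWAT C6KO-1 with 12 and 11 reads. The depots were deposited as separate tables, so that depot and table cannot be told apart. For Msln, the BAT table counted transcript NM_001356286 and the other tables NM_018857.

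A second list held 20 other genes that mark mesothelium or are expressed in it, of which 19 were in the tables and 17 were tested. In WT, 12 of the 17 were called higher in eWAT than in iWAT, where 12.8% of all genes tested were, and 13 of the 17 were called higher than in BAT, where 23.6% were. In C6KO, 9 of the 17 were called higher than in iWAT (background 14.1%) and 13 of the 17 higher than in BAT (background 26.5%). Chst4, Crb2 and Nkain4 fell under the filter on low counts in iWAT and in BAT. They were tested here because of their reads in eWAT and could hardly be called lower there, so these counts lean towards eWAT. Genes were called where edgeR's quasi-likelihood test gave an adjusted p under 0.05 over all genes and the fold change reached 1.5. The median log2 difference of the 17 genes in WT was 1.80 against iWAT and 2.35 against BAT, and that of all genes was 0.01 and -0.03.

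Of the 5 genes of this list with the highest CPM in eWAT of WT mice, Lrrn4cl, Pdpn and Prg4 were called higher than in both other depots. Lrrn4cl, which encodes a membrane protein named for its likeness to Lrrn4, had 72.8 ± 6.93 CPM in eWAT, 27.9 ± 1.48 in iWAT and 15.3 ± 5.45 in BAT, a log2 difference of 1.38 (SE 0.240, edgeR adjusted p = 0.000413) against iWAT and of 2.24 (SE 0.252, adjusted p = 1.05e-06) against BAT. Pdpn, which encodes the mucin-type glycoprotein podoplanin, differed by 1.80 (SE 0.358, edgeR adjusted p = 0.00134) and 2.71 (SE 0.383, adjusted p = 1.76e-05). Cldn15, a claudin of tight junctions, was called lower in eWAT than in iWAT (-1.32, SE 0.144, edgeR adjusted p = 1.12e-05) and higher than in BAT (0.79, SE 0.146, adjusted p = 0.000197). Bcam, which encodes a laminin receptor, was not called in WT, with log2 differences of -0.55 against iWAT and -0.52 against BAT.

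The list also held genes that were counted almost only in eWAT. Chst4, a sulfotransferase gene, had 76, 57 and 24 reads in the WT and 17, 40 and 83 in the C6KO libraries of eWAT and 0 in each of the 12 iWAT and BAT libraries. Crb2, which encodes a polarity protein, had 95, 121 and 80 reads in eWAT of WT mice and 13, 63 and 135 in C6KO, and at most 3 in an iWAT and 7 in a BAT library. Calb2, the gene of the mesothelial marker calretinin, had 0 reads in all eWAT and iWAT libraries and in BAT of WT mice, and 3, 1 and 2 reads in BAT of C6KO. For Calb2, Dmkn, Gpm6a and Gata4 of this list, the transcript counted was not the same in all depots, which limits their comparison between depots.

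Not called higher in WT against iWAT were Cldn15, Bcam, Dmkn, Anxa8 and Tbx18, and against BAT Bcam, Dmkn, Tbx18 and Cxadr. Cxadr, the gene of a virus receptor at cell junctions, was 2.79 higher than in iWAT on the log2 scale (SE 0.639, edgeR adjusted p = 0.00442), but BAT had 74.5 CPM of it and eWAT 27.2. In C6KO, Prg4, Gata6 and Cxadr joined Cldn15, Bcam, Dmkn, Anxa8 and Tbx18 as genes not called higher than in iWAT, and Cldn15 and Bcam were called lower (-0.94 and -0.73). Against BAT, the genes not called higher in C6KO were Bcam, Dmkn, Tbx18 and Cxadr, of which Cxadr was called lower (-2.42, SE 0.604, edgeR adjusted p = 0.00346).

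**Figure D2:**
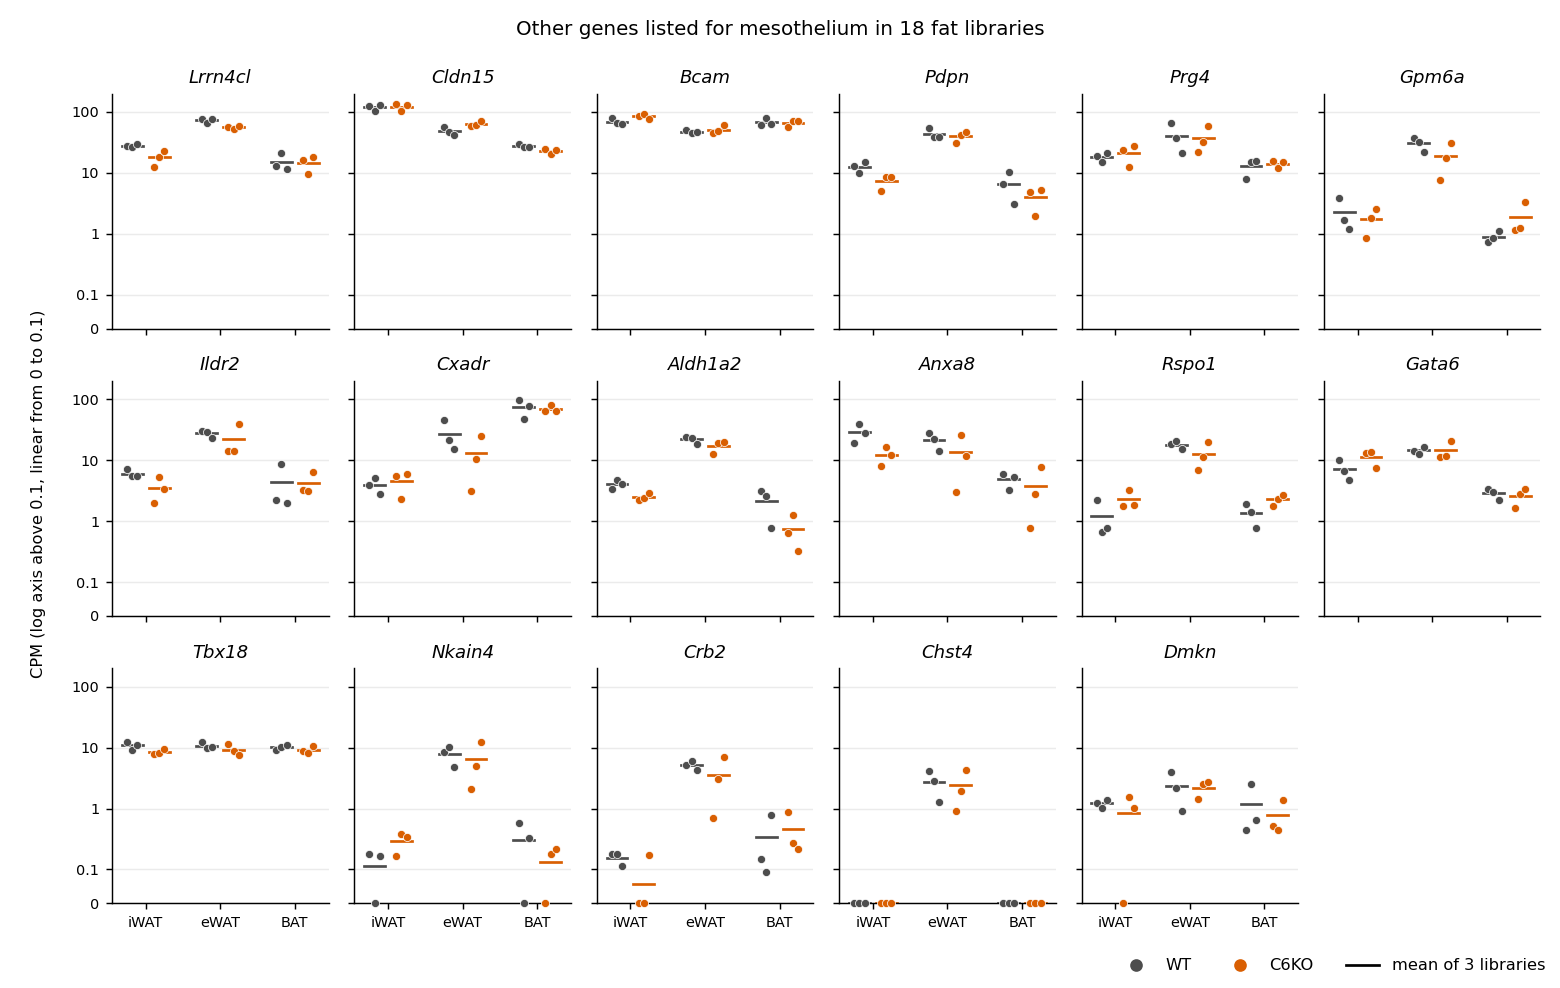
CPM of the 17 other tested genes of mesothelium (y axis, logarithmic above 0.1 CPM and linear below) in the 3 depots (x axis), ordered by their level in eWAT of WT mice. Points are libraries, WT in grey and C6KO in orange, and lines are means of 3. Chst4, Crb2 and Nkain4 are below 1 CPM outside eWAT, while Bcam lies between 44.7 and 92.1 CPM in all libraries and Cxadr is highest in BAT.

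Whether the knockout changed the mesothelial genes in eWAT was tested for all 10. None was called, against 0.746% of the 14889 genes tested in eWAT (0.537% higher and 0.208% lower in C6KO), and the genotypes overlapped for all 10 genes, where 23.2% of all genes did not overlap. None of the 10 had an unadjusted p below 0.05 in edgeR or DESeq2, where 17.6% and 13.6% of all genes did. The estimates ran from -0.92 for Upk1b to 0.02 for Krt18 on the log2 scale, with a median of -0.58, where the median of all genes was -0.006. Upk3b was at 34.8 ± 25.4 CPM in C6KO against 62.0 ± 14.5 in WT (log2 fold change -0.83, SE 0.593, edgeR adjusted p = 0.571). Msln was at 19.7 ± 12.1 against 33.7 ± 13.9 CPM (-0.77, SE 0.643, adjusted p = 0.632), and Lrrn4 at 19.96 ± 15.4 against 33.0 ± 9.38 CPM (-0.72, SE 0.652, adjusted p = 0.665). Wt1 was at 14.6 ± 7.16 against 19.2 ± 3.29 CPM (-0.38, SE 0.330, adjusted p = 0.628). With standard errors of 0.33 to 0.705 over the 10 genes, this does not show that the levels were equal.

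The estimates rested on which C6KO library was included. Without C6KO-1 the median of the 10 estimates was -0.26 and the range -0.52 to 0.52, and without C6KO-3 the median was -1.14 and the range -1.64 to -0.23. No gene was called in either case.

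**Figure D3:**
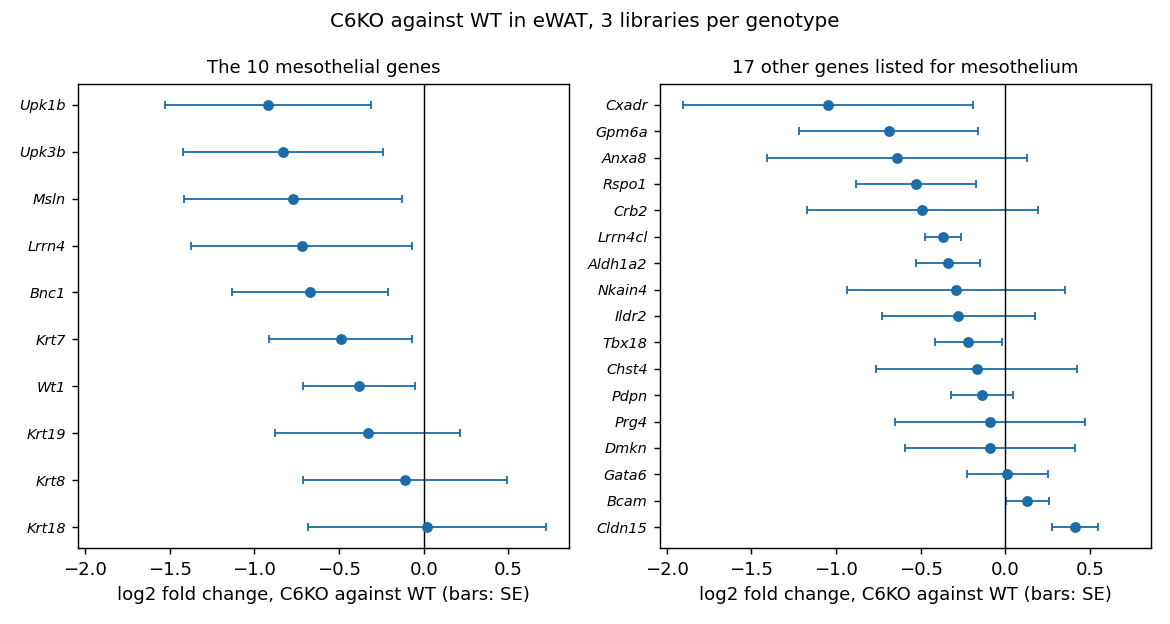
Log2 fold change in eWAT, C6KO against WT, with its standard error (x axis), for the 10 mesothelial genes (left) and the 17 other genes of mesothelium (right). No gene of either panel is called, and 1 of 10 and 3 of 17 estimates are above 0.

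The spread between eWAT libraries was larger for mesothelial genes than for most genes. Their highest library had 2.43 to 8.22 times the CPM of the lowest, with a median of 5.45, whereas the median of all genes tested was 1.52. C6KO-1 was the lowest library for 9 of the 10 genes and for 23.3% of all genes. The 10 genes summed to 236, 222 and 137 CPM in the WT libraries and to 50.8, 108 and 208 CPM in the C6KO libraries, and the lowest WT sum was below the highest C6KO sum. The other 17 genes had a median ratio of 3.03, and C6KO-1 was the lowest library for 11 of them, with 0.312 of the mean for Gpm6a, 0.162 for Crb2 and 0.154 for Cxadr. Tbx18 and Cldn15 did not follow, with 1.15 and 1.04 of their mean in C6KO-1.

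**Figure D4:**
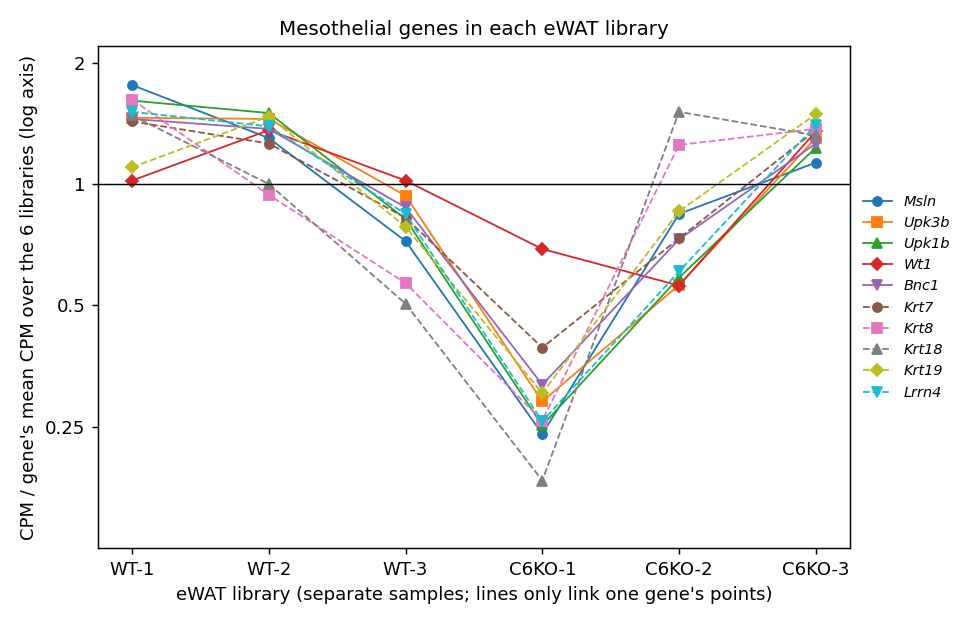
CPM of each mesothelial gene in each eWAT library (x axis) divided by that gene's mean over the 6 libraries (y axis, logarithmic). Lines only link the points of a gene. C6KO-1 lies between 0.184 and 0.393 for 9 genes, Wt1 lies at 0.69 there, and Krt8 and Krt18 lie apart from the rest in C6KO-2.

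Krt8 and Krt18 in C6KO-2 were at 1.25 and 1.51 times their means, where the other 8 members were at 0.56 to 0.856. The sum of 10 genes of other epithelia was also highest in that library, at 7.40 CPM against 1.30 to 4.62 in the other eWAT libraries. Elf3, Krt14 and Epcam, with 24, 36 and 19 reads, were highest in C6KO-2, as were Cldn3, Cdh1 and Esrp1. Others were not: Ehf had 48 reads in WT-2 against 17 in C6KO-2, Cldn7 had 14 against 8 and Cldn4 had 3 against 0. Krt5 was at 0 in every library. In iWAT C6KO-3, where Krt8 and Krt18 had 19 and 21 reads against 0 to 6 in the other iWAT libraries, the epithelial genes summed to 2.35 CPM against 0.729 to 1.54. Their part in the keratin values was not tested.

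Summed levels of macrophage, adipocyte and fibroblast genes in eWAT did not overlap between the genotypes, and 23.2% of all single genes did not either. No macrophage or fibroblast gene and 1 of 3 adipocyte genes was called, where 0.746% of all genes were. The 8 macrophage genes summed to 3470 to 4310 CPM in C6KO and 5140 to 6110 in WT, the 3 adipocyte genes to 3490 to 4620 and 2740 to 2940 CPM, and the 7 fibroblast and progenitor genes to 3000 to 3650 and 3820 to 4330 CPM. C6KO-1 had the lowest sum of the 6 libraries for the macrophage and fibroblast genes. Other sums overlapped, with 49.7 to 69.7 CPM in C6KO and 64.6 to 67.7 in WT for 6 Schwann cell genes. The 10 epithelial genes had 1.30 to 7.40 CPM in C6KO and 2.71 to 4.62 in WT. The part of these levels in the mesothelial values was not tested.

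Of the 17 other genes of mesothelium, none was called between the genotypes in eWAT. By unadjusted p, 2 of 17 were below 0.05 in edgeR and in DESeq2, where the shares over all genes were 17.6% and 13.6%, and the median estimate was -0.28. Those 2 in edgeR were Lrrn4cl, with 56.1 ± 2.93 CPM in C6KO against 72.8 ± 6.93 in WT (log2 fold change -0.37, SE 0.107, adjusted p = 0.113), and Cldn15, with 63.3 ± 7.74 against 48.0 ± 7.51 CPM (0.41, SE 0.138, adjusted p = 0.166). The genotypes did not overlap for either gene, as for 23.2% of all genes tested.

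Lrrn4 in BAT was the reason for its choice, so its values there are described without a test. The WT libraries had 7, 6 and 12 reads and the C6KO libraries 38, 52 and 54. On the CPM scale this was 5.11 ± 0.597 in C6KO and 0.968 ± 0.383 in WT, a log2 fold change of 2.41 or 5.31-fold. Every C6KO library was above every WT library, as for 7.44% of the 13595 genes tested in BAT, and the genotypes did not overlap in either direction for 19.8%. Without WT-2 the estimate was 2.13.

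The other mesothelial genes did not accompany Lrrn4 in BAT. None of the 9 reached the filter on low counts, so none could be called by edgeR, where 1.24% of all genes tested in BAT were (0.169% higher and 1.07% lower in C6KO). The C6KO libraries of BAT held 144 Lrrn4 reads beside 2 of Upk3b, 1 of Msln, 1 of Krt7, 2 of Krt18, 12 of Krt19 and 0 of Upk1b, Wt1, Bnc1 and Krt8. At the ratios seen in the 6 eWAT libraries, 144 Lrrn4 reads would go with 244 to 295 reads of Upk3b, 117 to 202 of Msln, 74.0 to 91.0 of Upk1b and 62.2 to 246 of Wt1. The upper 95% Poisson limits of the reads found were 7.22 for Upk3b, 5.57 for Msln and 3.69 for Upk1b and Wt1. For all 9 genes the upper limit lay below the lowest number of reads at the eWAT ratio. Lrrn4 was chosen for its reads in BAT, and the limits cover counting error only, not the spread between libraries. The comparison is therefore a description and not a test. Msln was also counted on another transcript in BAT than in eWAT.

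The WT libraries of BAT, with 25 Lrrn4 reads in all, also had fewer reads than that ratio gives for 6 of the 9 genes. The difference between the genotypes in BAT was 4.14 CPM, or 12.5% of the Lrrn4 level in eWAT of WT mice. Krt19 was the other member with reads in most BAT libraries, with 2, 5 and 0 in WT and 5, 3 and 4 in C6KO.

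In iWAT, Lrrn4 had 15, 14 and 22 reads in WT and 67, 115 and 45 in C6KO. Every C6KO library was above every WT library, as for 10.9% of the 14533 genes tested in iWAT, and the genotypes did not overlap in either direction for 23.1%. The levels were 4.22 ± 1.91 CPM in C6KO and 0.985 ± 0.216 in WT, a log2 fold change of 2.09 (SE 0.435). Lrrn4 was the 1 member that passed the filter on low counts in iWAT, and it was not called by edgeR (adjusted p = 0.153), where 0.0275% of all genes were (0.00688% higher and 0.0206% lower in C6KO). DESeq2 called it (adjusted p = 0.00223), as did edgeR without C6KO-3 (log2 fold change 2.33, adjusted p = 0.00836). The share of all genes called was also larger there, at 4.72% with DESeq2 and 8.64% without C6KO-3. C6KO-3 had the lowest Lrrn4 count of the C6KO libraries and macrophage genes at 1180 CPM, against 383 and 402 in C6KO-1 and C6KO-2 and 1560 to 1740 in WT.

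Beside the 227 Lrrn4 reads in iWAT of C6KO stood 4 reads of Upk3b, 0 of Msln, 0 of Upk1b and 0 of Wt1. For 7 of the 9 genes, all but Krt8 and Krt18, the upper Poisson limit was below the eWAT ratio. In iWAT of WT mice, with 51 Lrrn4 reads, it was below that ratio for 5 of the 9. These limits, too, cover counting error only. Msln had 13, 1 and 3 reads in WT and 0 in each C6KO library, and Wt1 had 3, 3 and 0 in WT and 0 in each C6KO library, while Upk3b had 0 in WT and 2, 0 and 2 in C6KO. These genes were under the filter in iWAT.

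**Figure D5:**
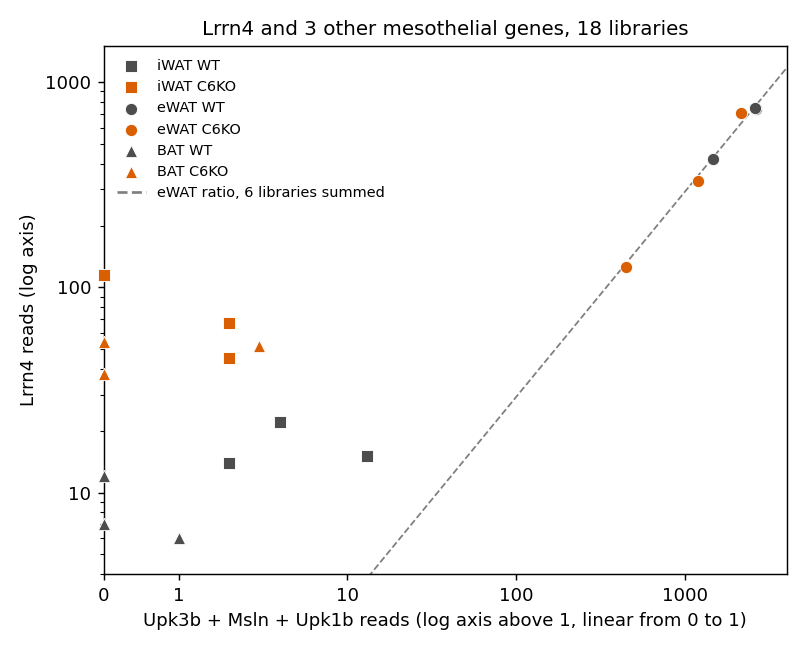
Lrrn4 reads (y axis, logarithmic) against the summed reads of Upk3b, Msln and Upk1b (x axis, logarithmic above 1 read and linear below) in each of the 18 libraries. The dashed line is the ratio over the 6 eWAT libraries. The eWAT libraries lie along the line, and every iWAT and BAT library lies to its left, with 38 to 115 Lrrn4 reads and 0 to 3 reads of the others in C6KO.

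Ordered by level, Lrrn4 stood at 33.0 CPM in eWAT WT, 19.96 in eWAT C6KO, 5.11 in BAT C6KO, 4.22 in iWAT C6KO, 0.985 in iWAT WT and 0.968 in BAT WT. Library ranges overlapped between the genotypes of eWAT, between BAT and iWAT of C6KO and between iWAT and BAT of WT. The difference between the knockout effects in iWAT and eWAT was 2.81 on the log2 scale for Lrrn4 (SE 0.696, edgeR adjusted p = 0.89), and edgeR called 0% of 15866 genes for that difference. DESeq2 called Lrrn4 for it (adjusted p = 0.0488), with 0.0866% of all genes, as did edgeR without iWAT C6KO-3, with 1.49%. No member was called for a difference between eWAT and BAT or between iWAT and BAT, where 0.536% and 0.183% of all genes were. Lrrn4 was left out of both, and the other 9 genes had few or no reads outside eWAT.

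edgeR called none of the other genes of mesothelium between genotypes in iWAT or BAT, where it called 0.0275% and 1.24% of all genes. In iWAT, 5 of 14 had an unadjusted p below 0.05 in edgeR, where 16.5% of all genes did, and 3 had one in DESeq2, where 13.3% did. DESeq2, which called 4.72% of all genes, called 1 of the list, the annexin gene Anxa8, with 12.2 ± 4.20 CPM in C6KO against 28.6 ± 9.92 in WT (log2 fold change -1.23, SE 0.322, edgeR adjusted p = 0.167, DESeq2 adjusted p = 0.00697). Lrrn4cl was at 17.9 ± 5.10 against 27.9 ± 1.48 CPM there (-0.64, SE 0.204, edgeR adjusted p = 0.199), and without C6KO-3, when 8.64% of all genes were called, it was called at -0.86 (adjusted p = 0.0257). Lrrn4 and Lrrn4cl thus had estimates of opposite sign in iWAT. In BAT, 0 of 13 had an unadjusted p below 0.05 in edgeR and in DESeq2, where 13.2% and 10.3% of all genes did. Lrrn4cl was at 14.6 ± 4.41 CPM in C6KO and 15.3 ± 5.45 in WT, and Gpm6a, a neuronal membrane glycoprotein gene also used as a mesothelial marker, had 9, 14 and 31 reads in C6KO against 5, 9 and 10 in WT (1.09, SE 0.548, adjusted p = 0.437).

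Relatives of the members were described as well. Lrrn2 had 318, 299 and 338 reads in WT and 167, 331 and 264 in C6KO of eWAT. In BAT it had 21, 65 and 19 reads in WT and 4, 14 and 15 in C6KO and was not called (log2 fold change -1.72, SE 0.555, edgeR adjusted p = 0.204), nor was it in iWAT, with 5.18 against 12.2 CPM (-1.24, SE 0.346, adjusted p = 0.168). Its estimates in both depots were opposite in sign to those of Lrrn4. Lrrn1 had 259 reads in BAT WT-2, the library with muscle transcripts, and 0 to 29 in the other BAT libraries. Lrrn3 stayed at or below 51 reads per library. Bnc2, the paralog of Bnc1, was at 13.1 CPM in both genotypes of eWAT and, unlike Bnc1, was counted in every library. Upk1a had at most 18 reads per library, and Upk2, Upk3a and Upk3bl at most 4. None of the relatives was called, and neither was any of the 51 other keratins, of which 4 or 5 were tested per depot.

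Lrrn4 is listed as NM_177303 on chromosome 2 of mm10, from 132868516 to 132880862 on the minus strand. Crls1, which encodes cardiolipin synthase, ends at 132866768 and runs towards it on the plus strand without overlap. Crls1 was at 96.5 ± 30.3 CPM in C6KO against 48.0 ± 7.40 in WT in iWAT (log2 fold change 1.01, SE 0.229, edgeR adjusted p = 0.154) and at 326 ± 41.6 against 225 ± 91.9 CPM in BAT (0.56, SE 0.271, adjusted p = 0.417). In eWAT it was at 41.1 ± 0.213 against 32.0 ± 3.15 CPM (0.37, SE 0.109, adjusted p = 0.121). Its estimates were thus above 0 in the depots where Lrrn4 was higher and also in eWAT, and whether its reads have a part in those of Lrrn4 was not tested. Trmt6 and Mcm8, also within 100 kb, had estimates between -0.26 and 0.47 and were not called, and Chgb and Fermt1 had too few reads to test. GENCODE lists Gm36026 antisense to Krt8 and the pseudogene 4833418N17Rik across the start of Bnc1, and whether counting used the strand is not given in the sources used here.

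Genes with the most similar pattern were ranked by the root mean square difference of log2 CPM, each gene centred on its mean. Across all 18 libraries, the genes closest to Msln of 15175 genes included Wt1 (difference 0.813), Upk1b (0.879), Bnc1 (1.01) and Kdm5d (1.11), followed by Pkhd1l1, Uty and Lrp2. Upk3b ranked at 10, Krt7 at 14, Krt19 at 24, Krt8 at 63, Krt18 at 95 and Lrrn4 at 452. These ranks depended on the prior count added before the log2. With 5 in place of 1, Upk3b ranked at 5, Krt19 at 15, Krt7 at 20, Krt18 at 196, Lrrn4 at 214 and Krt8 at 226. Pkhd1l1, which encodes a fibrocystin-like membrane protein, followed the member genes within eWAT, with 819, 604 and 450 reads in WT and 144, 319 and 735 in C6KO. Lrp2, the gene of the endocytic receptor megalin, had 279, 204 and 168 reads in WT and 39, 136 and 430 in C6KO.

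Across the 12 iWAT and BAT libraries, the genes closest to Lrrn4 were Sh3d21 (0.666), Dcst2 (0.674), Aacs (0.693), Tcf23 (0.703) and 4933406I18Rik (0.709) of 14727 genes. The other 9 mesothelial genes had too few reads there to be ranked. Sh3d21, an SH3 domain gene, had 149, 124 and 147 reads in WT and 435, 346 and 226 in C6KO of iWAT, and 30, 53 and 67 in WT and 105, 133 and 134 in C6KO of BAT. It was also higher in every C6KO library of eWAT, at 213, 107 and 88 reads against 53, 57 and 72, where Lrrn4 was not. With a prior count of 5 in place of 1, 3 of these 5 genes remained among the closest.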

How the data were processed

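RNA was measured in 18 libraries, 3 per genotype and depot. After poly(A) selection and NextSeq sequencing, STAR mapped reads to mm10 and HOMER counted them on exons, with 1 transcript kept for each gene. The authors deposited these as raw whole-number counts, each depot in its own table of 25124 genes. Strandedness, annotation and tool versions are not given in the sources used here. For 2619 genes the transcript differs between tables. A total of 0 value columns had no sample.

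From the counts, edgeR 4.0.16 (limma 3.58.1, R 4.3.3) was run per depot: filterByExpr, TMM, robust quasi-likelihood test, Benjamini-Hochberg adjustment over all genes tested, with calls where the adjusted p was under 0.05 and the fold change reached 1.5. Depots, and knockout effects between depots, were compared in 1 fit of all 18 libraries, with no fold minimum for the latter. CPM values are on the TMM scale of that fit, and their precision is set by the depth given in the report. A fold against a group with no reads uses a floor of 3 reads in each library of the group. Counting intervals of folds are 95% exact binomial limits on the share of reads in eWAT, scaled by depth. Upper limits of read numbers are those of 95% Poisson intervals. Likeness was measured on log2 CPM (prior count 1). When tested on simulated data, the calls per depot held more false genes than the nominal share, DESeq2 more than edgeR. DESeq2 1.42.0 and the other alternatives are given with their effect in the closing section. Promoter sequences are from RefSeq, and overlapping genes from GENCODE vM21. Figures used matplotlib 3.10.9.

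The members and lists were chosen with earlier results of these data known, and the muscle genes and Y-linked genes after their values were seen. Named were the 10 members, other mesothelial genes called in a knockout comparison, the 5 most abundant in eWAT and those not called higher there, relatives that passed the filter, genes within 100 kb of Lrrn4, and the 5 genes most like Msln and Lrrn4, of which 1 is not reported here. Anxa8, Gpm6a, Chst4, Crb2, Calb2, Upk2, Upk3a and Upk3bl were named after their values were seen. Replicate numbers come from the sample labels, and nothing says that same-numbered libraries share an animal or batch, or that libraries of a group came from separate animals, so p-values measure the spread between these libraries.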

Additional observations from a re-analysis of the deposited data

How the results depend on the processing

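All calls of the 10 mesothelial genes between genotypes in eWAT stayed at 0 under DESeq2, its size factors within edgeR, scaling by total counts alone, testing without a low-count filter, a replicate block, 1 fit of all 18 libraries and the omission of each library. In iWAT, DESeq2 gave 1 call among the members (Lrrn4), 1 among the other mesothelial genes (Anxa8), and 1 member whose knockout effect differed between iWAT and eWAT (Lrrn4), where edgeR gave 0. DESeq2 also called more genes in all, 169 higher and 505 lower in iWAT against 1 and 3 by edgeR, and 429 and 189 in eWAT against 80 and 31. Omission of each library gave 0 to 1 for these 3 counts, and the 1 came from omitting iWAT C6KO-3, when 327 genes were called higher and 951 lower in iWAT. No alternative gave a call in BAT among the other mesothelial genes or changed the direction of Lrrn4 in iWAT or BAT. In BAT its log2 fold change ranged from 2.39 to 2.45 over the other alternatives and from 2.13 (without WT-2) to 2.76 (without WT-3) when a library was omitted. Counts of other mesothelial genes called higher in eWAT stayed within 8 to 13.

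Same-numbered WT and C6KO libraries did not deviate together (correlations in iWAT were 0.022 to 0.037, those in eWAT -0.104 to 0.161 and those in BAT -0.603 to -0.244), so the numbers were not taken as pairs. With the replicate block, 1 other mesothelial gene, Anxa8, was called in iWAT (adjusted p = 0.0423), and Krt18 in eWAT was at -0.12. Over all genes, the block raised the calls to 8 higher and 54 lower in iWAT and to 298 and 116 in eWAT, and gave 12 and 101 in BAT against 23 and 145. It changed none of the other counts given for the mesothelial genes by over 1.5 times. Krt18 was at -0.01 when scaled by total counts alone. When each library was omitted in turn, estimates in eWAT ranged from -0.38 to 0.52 for Krt18, from -0.45 to 0.35 for Krt8 and from -0.95 to 0.08 for Krt19. The cause of these changes was not tested. Of the genes most like Lrrn4, 3 of 5 were shared with a prior count of 5.

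None of the 9 members other than Lrrn4 passed the filter on low counts in the edgeR fits of iWAT and BAT alone, so those fits did not test them. DESeq2 was run without this filter. In iWAT it gave an unadjusted p under 0.05 for 2 members, Lrrn4 included, where 13.3% of all genes had one. In BAT it gave one for 0 of the members other than Lrrn4, where 10.3% of all genes had one. BAT was the shallowest depot.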

Other observations

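Kdm5d and Uty, which lie on the Y chromosome, ranked among the genes most like Msln and were counted in eWAT and nowhere else. All 51 genes listed on the Y chromosome had 0 reads in the iWAT and BAT tables, while 8 of them had reads in eWAT, 26797 in all. Ddx3y, Eif2s3y, Kdm5d and Uty had 396 to 2669 reads in each eWAT library and 0 in each of the 12 others. Xist, expressed from an inactive X chromosome, had 0 to 13 reads in all 18 libraries. The study's methods name male mice for its in vivo models. Depot and table cannot be told apart for these genes.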
